A study of Mus musculus with 8 samples.

Results

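Large molecular chaperones were followed in the soleus muscle of mice that model Down syndrome. The soleus is a calf muscle rich in slow fibres. The genes were a fixed list of 40 symbols from the HSP70, HSP90 and DnaJ systems, with their organelle relatives, BAG co-chaperones and heat shock factors. A gene was measured by the probe set annotated to that symbol alone, and, where a gene had several, by the brightest of them on average across the 8 arrays. In this way 37 of the 40 were measured, out of 19938 genes in all. Hspa1b, Hsp90ab1 and Hsf1 had no such probe set and were not analysed here.

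The study compared 4 male Ts65Dn mice with 4 male wild-type mice that served as colony controls, labelled B6EiC3SnF1/J, a mix of the B6 and C3H backgrounds, with 1 array per mouse. All were about 5 months old and described as healthy, and their muscles were removed in the basal state under pentobarbital. Ts65Dn mice carry an extra marker chromosome, so that a distal part of mouse chromosome 16 and a proximal part of chromosome 17 are present in 3 copies in all tissues and not in muscle alone. None of the 37 measured chaperone genes lay in these segments (0 genes), including the 4 on chromosome 16 (Hspa13, Dnajb11, Trap1 and Dnaja3) and the 2 on chromosome 17 (Hspa1a and Hspa1l).

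HSP70 proteins bind unfolded stretches of other proteins and release them in a cycle driven by ATP. J proteins (DnaJ or HSP40 proteins) bring clients to HSP70 and start ATP hydrolysis, HSP110 and BAG proteins exchange the nucleotide, and Stip1 passes clients from HSP70 to HSP90, which completes the folding of kinases, receptors and myosin. The endoplasmic reticulum (ER) and the mitochondria have sets of their own. Heat shock factors switch on the cytosolic genes when proteins unfold, and the unfolded protein response switches on those of the ER. In muscle these systems support the assembly of myosin and the turnover of sarcomere proteins.

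Promoters are shown first because 2 kinds of element are known as binding sites of the heat shock response and of the ER stress response. RefSeq promoter sequences of GRCm38.p6, from 250 bases before to 50 after a gene's start, were on hand for 32 of the 40 genes, as 45 promoters. The heat shock element is built of GAA and TTC units in turn, with NN (any bases) between them. It was searched on both strands in a long form of 3 units (GAA, NN, TTC, NN, GAA) and in 2 short forms of 2 units, GAANNTTC and TTCNNGAA, which each lie within the long form and read the same on both strands. In the windows below capitals mark the matches, and the matched position is counted from the first base of the gene as 0.

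Hspd1, chr1:55088035-55088100, minus strand, first match at -144: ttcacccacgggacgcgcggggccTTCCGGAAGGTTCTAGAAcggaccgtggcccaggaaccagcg
Hspe1, chr1:55088035-55088100, plus strand, first match at -89: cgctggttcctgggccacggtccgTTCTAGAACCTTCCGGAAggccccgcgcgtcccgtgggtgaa
Hsph1, chr5:149636287-149636308, minus strand, match at 36: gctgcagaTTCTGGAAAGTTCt
Dnajb6, chr5:29735828-29735888, plus strand, match at -46: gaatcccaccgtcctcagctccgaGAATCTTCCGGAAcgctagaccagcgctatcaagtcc
Hspa1a, chr17:34972229-34972284, minus strand, GAANNTTC at -104: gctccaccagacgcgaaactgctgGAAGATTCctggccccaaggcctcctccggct
Dnaja4, chr9:54699445-54699538, plus strand, GAANNTTC, first match at -90: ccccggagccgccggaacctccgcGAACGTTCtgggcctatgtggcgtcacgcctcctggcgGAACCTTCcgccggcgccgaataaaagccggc

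The long form was found in promoters of 4 of the 32 genes (Hspd1, Hspe1, Hsph1 and Dnajb6), and in 0.603% of all 32851 promoters of the same length (0.662% of all genes in the table). Hspd1 and Hspe1, the mitochondrial chaperonin and its lid, share 1 stretch between them that is read from opposite strands, so their matches are the same bases. GAANNTTC was found for 8 of the 32 genes, the 4 above with Hspa1a, Hspa1b, Dnaja1 and Dnaja4, and in 7.86% of all promoters (9.04% of all genes). TTCNNGAA was found for 6, the same 4 with Dnajc10 and Dnajb4, and in 8.52% of all promoters (9.60% of all genes). A match describes these letters and is no measurement of binding.

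The ER stress response element, CCAAT and CCACG with 9 bases of any kind between them, on either strand, was found in promoters of 3 of the 32 genes, all encoding ER chaperones, and in 0.119% of all promoters (0.137% of all genes). These are Hspa5 (also called BiP), the HSP70 of the ER, Hsp90b1 (Grp94), its HSP90, and Dnajc3, a J protein of the ER. The Hsp90b1 promoter held 2 matches, 1 on each strand. Promoters of 19 of the 32 genes held none of the letters searched. Only exact letters from 250 bases before to 50 after the start were searched. A gene without a match may still carry such an element elsewhere or with other letters.

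Hspa5, chr2:34772001-34772067, plus strand, match at -65: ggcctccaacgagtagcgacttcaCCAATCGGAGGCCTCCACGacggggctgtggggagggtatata
Dnajc3, chr14:118937803-118937869, plus strand, match at -105: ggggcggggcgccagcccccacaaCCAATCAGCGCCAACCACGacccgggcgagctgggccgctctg
Hsp90b1, chr10:86705509-86705680, minus strand, first match at -212: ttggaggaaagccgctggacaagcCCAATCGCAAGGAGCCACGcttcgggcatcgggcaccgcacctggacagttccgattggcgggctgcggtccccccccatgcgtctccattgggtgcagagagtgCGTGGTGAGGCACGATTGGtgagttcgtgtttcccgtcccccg

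Values are log2 levels of Affymetrix gene arrays, and differences are Ts65Dn minus wild type. The arrays differed between the groups as a whole. Array medians lay between 4.23 and 4.29 in Ts65Dn and between 4.37 and 4.56 in wild type, and wild-type arrays 2 and 3 had the narrowest spread of values (interquartile ranges of 2.74 and 2.62, against 2.90 to 3.12 for the other arrays). Over all genes the median difference was -0.10, and centring the arrays on their medians turned it to 0.10. It also depended on the level of the gene, being -0.29 for other genes at a mean level of 4 to 5, 0.35 at 7 to 8 and 0.02 at 11 to 12. Each chaperone was therefore set beside the 100 genes outside the trisomic segments nearest to it in mean level (2453 genes in all), and the level-matched difference is what remains when their median deviation is taken off in each array. Skeletal muscle markers were at the top of the scale, with all 10 genes at mean levels between 10.39 and 12.50.

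The chaperones as a set had mostly positive differences, and 0 of the 37 were called by limma, that is, had a p under 0.05 after Benjamini-Hochberg adjustment over all genes. By that rule 2.32% of all genes were called higher and 2.94% lower (5.26% in all), against 3.55% and 1.14% of the genes of like level (4.69% in all), and the smallest adjusted p of any gene was 0.0449. The smallest of a chaperone was 0.0518. At an unadjusted p under 0.05, 16 chaperones lay higher and 1 lower in Ts65Dn. That is 43.2% higher, beside 12.3% of all genes and 23.4% of the genes of like level, and 2.70% lower, beside 22.6% and 8.68%. With another quantile normalization these counts were 6 and 2, and with cyclic loess 5 and 1. The median difference of the 37 was 0.27, beside -0.10 for all genes and 0.15 for those of like level. Of the 37 differences 30 were positive (81.1%, beside 39.2% of all genes and 69.0% of genes of like level).

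All 4 Ts65Dn arrays lay above all 4 wild-type arrays for 8 of the 37 (21.6%, beside 6.81% of all genes and 14.9% of genes of like level). They lay below them for 1 (beside 15.9% and 5.71%). In level-matched values the median of the 37 was 0.05, and 26 were positive (70.3%, beside 50.2% of all genes and 52.1% of genes of like level). By these values 6 chaperones lay higher at an unadjusted p under 0.05 (16.2%, beside 11.5% of all genes and 11.7% of genes of like level) and 1 lower (beside 9.42% and 9.99%). By limma 0 were called in them (beside 0.366% of all genes higher and 0.0802% lower, and 0.204% and 0.122% of genes of like level). The groups lay apart in level-matched values for 2 higher, Hsp90b1 and Hspd1 (beside 6.33% of all genes and 6.4% of genes of like level), and for 1 lower, Dnajb5 (beside 6.48% and 7.58%). The plot of differences shows the members beside the medians of genes of like level.

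**Figure D1:**
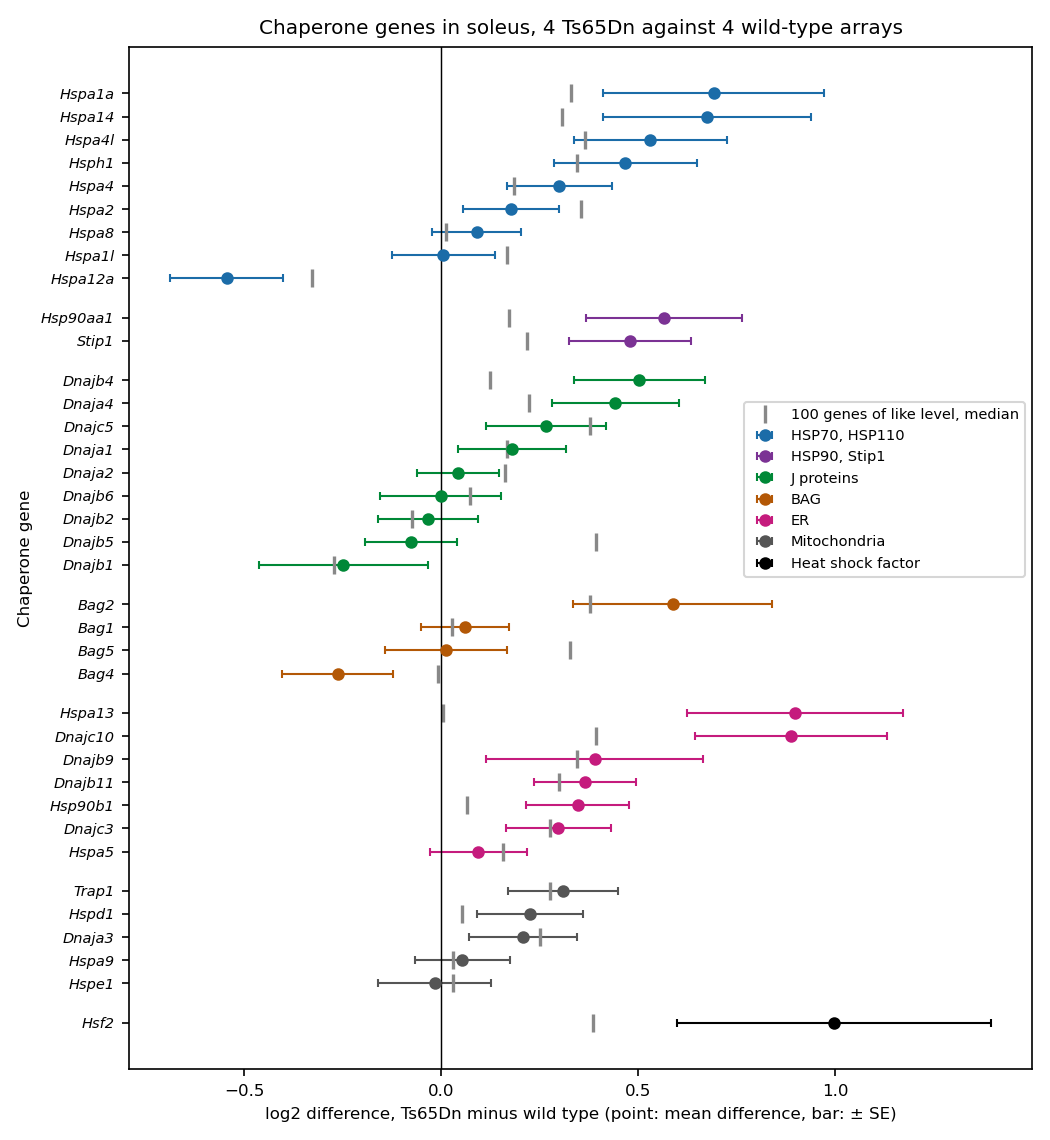
Log2 difference between Ts65Dn and wild-type soleus for the 37 measured chaperone genes, ordered by role (points with SE bars, 4 arrays per group), with the median difference of the 100 genes nearest in mean level as a grey tick. Hsf2, Hspa13 and Dnajc10 lie farthest to the right, at 0.998, 0.90 and 0.89, Hspa12a lies farthest to the left at -0.54, and 30 of 37 points lie right of 0.

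The cytosolic and nuclear HSP70 and HSP110 genes held 8 positive differences among 9 measured genes, with a median of 0.30, and 0 calls. At an unadjusted p under 0.05 by limma 5 lay higher and 1 lower (55.6% and 11.1%). Beside them stand 12.3% and 22.6% of all genes, and 23.4% and 8.68% of genes of like level. After level matching the median was 0.13, and 0 lay higher and 0 lower. Hspa1a, the HSP70 that is switched on by heat and stress, was at 8.51, 8.27, 7.43 and 7.18 in Ts65Dn arrays 1 to 4 and at 7.11, 7.27, 6.80 and 7.44 in wild-type arrays 1 to 4. Ts65Dn arrays 1 and 2 were high, and arrays 3 and 4 lay inside the wild-type range, so the groups overlapped. The difference was 0.69 ± 0.28 (SE, limma adjusted p = 0.113) and 0.39 after level matching.

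Hspa8, the HSP70 that cells always make, was at 11.68, 11.62, 11.51 and 11.55 in Ts65Dn and at 11.61, 11.40, 11.39 and 11.59 in wild type. All 8 arrays lay close together, and the groups overlapped. The difference was 0.09 ± 0.11 (SE, limma adjusted p = 0.576). Its 3 probe sets gave 0.09, 0.12 and 0.04, and the third of these varied between 9.20 and 11.56 over the arrays.

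Hsph1, an HSP110 that recharges HSP70 and whose promoter window is shown above, was at 7.69, 7.99, 7.61 and 7.70 in Ts65Dn and at 7.68, 7.08, 6.88 and 7.48 in wild type. Wild-type array 1 lay within the Ts65Dn range, and the other three lay below it. The difference of 0.47 ± 0.18 (SE, limma adjusted p = 0.102) was 0.13 after level matching and 0.17 without wild-type arrays 2 and 3.

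Hspa4l, another HSP110 relative, was at 6.75, 7.02, 6.70 and 6.69 in Ts65Dn and at 6.39, 6.48, 5.64 and 6.53 in wild type. The groups did not overlap, and wild-type array 3 lay far below the rest. The difference was 0.53 ± 0.19 (SE, limma adjusted p = 0.0905), 0.22 after level matching, and 0.32 without wild-type array 3. Hspa4 of the same family had a difference of 0.30 ± 0.13 (SE, limma adjusted p = 0.138), also without overlap.

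Hspa14, an HSP70 that works at the ribosome, was at 7.25, 7.06, 6.96 and 6.86 in Ts65Dn and at 6.83, 6.49, 5.44 and 6.67 in wild type. Here too wild-type array 3 was the lowest, and wild-type array 1 came close to the lowest Ts65Dn array without reaching it. The difference was 0.67 ± 0.26 (SE, limma adjusted p = 0.105), and 0.37 without wild-type array 3.

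Hspa12a, a distant HSP70 relative, went the other way. It was at 3.66, 4.01, 4.07 and 3.85 in Ts65Dn and at 4.23, 4.70, 4.35 and 4.50 in wild type, so that all 4 Ts65Dn arrays lay below. The difference was -0.54 ± 0.14 (SE, limma adjusted p = 0.0518). The genes of like level had a median of -0.33, and the level-matched difference was -0.21, with overlapping groups. The mean level of Hspa12a, 4.17, lay below the median of all genes, and whether its RNA was detected was not tested. Hspa2 and Hspa1l, known mainly for their part in sperm formation, had differences of 0.18 (limma adjusted p = 0.307) and 0.0055 (limma adjusted p = 0.981), which turned negative after level matching (-0.15 and -0.16).

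**Figure D2:**
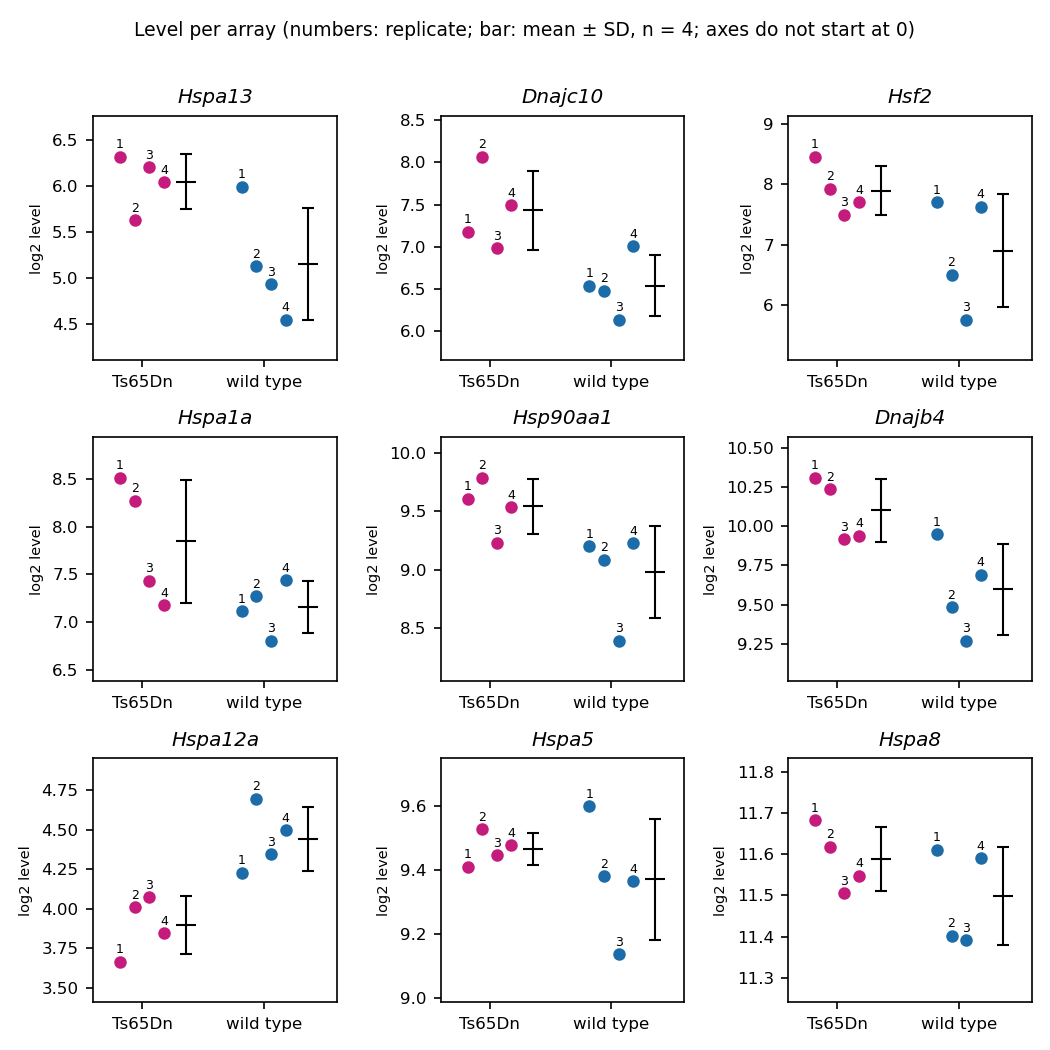
Log2 level of 9 chaperone genes on each array (points numbered by replicate, with mean and SD beside them, 4 arrays per group). The groups do not overlap for Hsp90aa1 and Hspa12a and overlap for the other 7, and wild-type array 3 is the lowest of all for Hsf2, Hspa1a, Hsp90aa1, Dnajb4, Dnajc10, Hspa5 and Hspa8.

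Both measured genes of the HSP90 group had positive differences. Hsp90aa1, the stress-inducible HSP90, was at 9.61, 9.79, 9.23 and 9.54 in Ts65Dn and at 9.20, 9.09, 8.39 and 9.23 in wild type. The lowest Ts65Dn array, array 3, lay just above wild-type array 4, and wild-type array 3 stood apart below. The difference was 0.57 ± 0.20 (SE, limma adjusted p = 0.0838), 0.36 after level matching and 0.37 without wild-type array 3. Its 3 probe sets gave 0.57, 0.46 and 0.45, and the groups overlapped in the third, with Ts65Dn array 3 at 8.26 and wild-type array 4 at 8.38. For Hsp90aa1, Hspa8, Hspd1, Hspe1 and Dnaja1, which have several probe sets, it is not known here whether the brightest one lies in the gene or in a copy of it elsewhere in the genome.

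Stip1, the adaptor between HSP70 and HSP90, was at 8.98, 9.32, 9.14 and 9.06 in Ts65Dn and at 9.003, 8.43, 8.41 and 8.74 in wild type. Only wild-type array 1 reached the Ts65Dn range. The difference was 0.48 ± 0.16 (SE, limma adjusted p = 0.0707), 0.27 after level matching and 0.25 without wild-type arrays 2 and 3.

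Among the 9 J proteins outside the organelles, 5 differences were positive and 4 negative, with a median of 0.04 and 0 calls. At an unadjusted p under 0.05 by limma 2 lay higher (22.2%) and 0 lower. The shares of all genes were 12.3% and 22.6%, and those of genes of like level 23.4% and 8.68%. Dnajb4, a J protein that is abundant in muscle, was at 10.31, 10.24, 9.92 and 9.94 in Ts65Dn and at 9.95, 9.48, 9.27 and 9.69 in wild type. Ts65Dn arrays 3 and 4 lay just under wild-type array 1, and the other wild-type arrays were lower. The difference was 0.50 ± 0.17 (SE, limma adjusted p = 0.0734) and 0.39 after level matching, and 0.28 without wild-type arrays 2 and 3.

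Dnaja4, with 2 short heat shock elements in the window above, was at 8.89, 9.10, 8.83 and 8.90 in Ts65Dn and at 8.71, 8.76, 8.09 and 8.39 in wild type, without overlap. The difference was 0.44 ± 0.16 (SE, limma adjusted p = 0.0894), 0.22 after level matching. Dnajb1, the J protein that partners stress-induced HSP70, was at 4.62, 4.27, 4.57 and 4.57 in Ts65Dn and at 4.62, 4.58, 4.37 and 5.45 in wild type. Wild-type array 4 was the single high array, and the groups overlapped. The difference was -0.25 ± 0.21 (SE, limma adjusted p = 0.412), and 0.01 after level matching. The mean level of Dnajb1, 4.63, lay below the median of all genes, and whether its RNA was detected was not tested.

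Dnajb6, which keeps desmin filaments in order in muscle and carries the long heat shock element above, had a difference of -0.0015 ± 0.15 (SE, limma adjusted p = 0.996). Dnaja1 (0.18), Dnaja2 (0.04) and Dnajb2 (-0.03), which assist HSP70 in the cytosol, and Dnajc5 (0.27), the cysteine string protein of synaptic vesicles, had limma adjusted p-values from 0.231 to 0.866. Dnaja1 has 2 probe sets, which gave 0.18 and 0.03. Dnajb5 had a difference of -0.08 in the deposited values, where genes of like level had a median of 0.39. Its level-matched difference was -0.44 ± 0.14 (SE, limma adjusted p = 0.121), with all 4 Ts65Dn arrays below.

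BAG proteins release the nucleotide from HSP70. Of 4 measured, 3 had positive differences and 0 were called, with 1 higher at an unadjusted p under 0.05 by limma. Bag2, which also inhibits the ubiquitin ligase Stub1, was at 7.39, 8.47, 7.47 and 7.34 in Ts65Dn and at 7.13, 7.26, 6.63 and 7.30 in wild type. The groups did not overlap, but only Ts65Dn array 2 stood clear of wild-type arrays 2 and 4. The difference was 0.59 ± 0.25 (SE, limma adjusted p = 0.129) and 0.32 without Ts65Dn array 2. Bag1 (0.06), Bag4 (-0.26) and Bag5 (0.01) had limma adjusted p-values of 0.714, 0.203 and 0.964.

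All 7 chaperones of the ER had positive differences, as did 69.0% of genes of like level. Their median was 0.37, beside -0.10 for all genes and 0.15 for genes of like level. None was called (0 of 7), and 5 lay higher at an unadjusted p under 0.05 by limma, beside 12.3% of all genes and 23.4% of genes of like level. After level matching the median was 0.12, and 6 of 7 were positive, Hspa5 being the exception at -0.05. By these values 3 of 7 lay higher at that p (42.9%, beside 11.5% of all genes and 11.7% of genes of like level). Hspa13, an HSP70-like protein of the ER and microsomes whose human gene lies on the chromosome trisomic in Down syndrome, was at 6.32, 5.63, 6.21 and 6.04 in Ts65Dn and at 5.997, 5.13, 4.94 and 4.55 in wild type. Wild-type array 1 lay among the Ts65Dn arrays and the other three lay below all of them. The difference was 0.90 ± 0.27 (SE, limma adjusted p = 0.0648), close to a 1.86-fold level.

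The genes nearest in level to Hspa13 had a median difference of 0.01, and its level-matched difference was 0.93 (limma adjusted p = 0.114). It was 0.78 without wild-type arrays 2 and 3 and 1.18 without wild-type array 1, where it passed (limma adjusted p = 0.0263). Array 1 was the highest wild-type array for this gene, so leaving it out had to raise the difference. Of all genes 14.4% passed in that fit. On mouse chromosome 16 the gene lies outside the segment present in 3 copies.

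Dnajc10, a J protein and disulfide reductase of the ER, was at 7.18, 8.07, 6.99 and 7.49 in Ts65Dn and at 6.54, 6.48, 6.14 and 7.01 in wild type. Ts65Dn array 2 was the highest, and only Ts65Dn array 3 fell within the wild-type range, just under wild-type array 4. The difference was 0.89 ± 0.24 (SE, limma adjusted p = 0.0544), 0.54 after level matching, and 1.04 without wild-type array 4, where it passed (limma adjusted p = 0.0409). Array 4 was the highest wild-type array for Dnajc10, so leaving it out had to raise the difference. In that fit 12.1% of all genes passed.

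Hsp90b1, whose promoter holds both ER stress elements above, was at 10.78, 10.80, 10.85 and 10.90 in Ts65Dn and at 10.72, 10.49, 10.20 and 10.53 in wild type. The 4 Ts65Dn arrays lay close together and above all wild-type arrays, also after level matching. The difference was 0.35 ± 0.13 (SE, limma adjusted p = 0.0963), with 0.28 after level matching and 0.20 without wild-type arrays 2 and 3. Dnajb11, a J protein that serves Hspa5, was at 8.64, 8.66, 8.58 and 8.87 in Ts65Dn and at 8.52, 8.09, 8.35 and 8.32 in wild type, without overlap. The difference was 0.37 ± 0.13 (SE, limma adjusted p = 0.0844), and 0.12 after level matching.

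Hspa5, the HSP70 of the ER and a usual readout of the unfolded protein response, was at 9.41, 9.53, 9.45 and 9.48 in Ts65Dn and at 9.60, 9.38, 9.14 and 9.36 in wild type. Wild-type array 1 was the highest of all 8 and array 3 the lowest, so the Ts65Dn arrays lay inside the wild-type range. The difference was 0.09 ± 0.12 (SE, limma adjusted p = 0.592). Dnajc3 (0.30), which also restrains the kinase Eif2ak3, and Dnajb9 (0.39), which acts in disposal of misfolded ER proteins, had limma adjusted p-values of 0.143 and 0.321. Dnajc3 has 2 probe sets with identical values. The 3 genes with an ER stress element in the windows above, Hspa5, Dnajc3 and Hsp90b1, thus had differences of 0.09, 0.30 and 0.35. After level matching these were -0.05, 0.06 and 0.28, and that of Dnajb9 was 0.05.

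The 5 mitochondrial chaperones had a median difference of 0.21, which was 0.028 after level matching and 0.022 without wild-type arrays 2 and 3, and 0 lay past an unadjusted p of 0.05 by limma or were called. Trap1, the HSP90 of mitochondria, was at 8.58, 8.32, 8.51 and 8.52 in Ts65Dn and at 8.30, 8.23, 7.83 and 8.34 in wild type. Only wild-type array 4 reached the lowest Ts65Dn array. The difference was 0.31 ± 0.14 (SE, limma adjusted p = 0.144), and 0.03 after level matching.

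Hspa9 (mortalin), the HSP70 that pulls proteins into mitochondria, was at 11.31, 11.40, 11.40 and 11.38 in Ts65Dn and at 11.45, 11.33, 11.07 and 11.42 in wild type. The Ts65Dn arrays lay inside the wild-type range, and the difference was 0.05 ± 0.12 (SE, limma adjusted p = 0.763). Hspd1 and Hspe1, which share a promoter region, had differences of 0.23 ± 0.14 (SE, limma adjusted p = 0.247) and -0.02 ± 0.14 (SE, limma adjusted p = 0.943). A second probe set gave 0.16 for Hspd1 and -0.04 for Hspe1. Dnaja3, the J protein of the matrix, had a difference of 0.21 (limma adjusted p = 0.289).

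Hsf2, a heat shock factor that works with Hsf1, had the largest difference of the 37. It was at 8.45, 7.92, 7.50 and 7.70 in Ts65Dn and at 7.70, 6.50, 5.76 and 7.63 in wild type. Wild-type arrays 1 and 4 lay among the Ts65Dn arrays, and wild-type arrays 2 and 3 lay far below every other array. The difference was 0.998 ± 0.40 (SE, limma adjusted p = 0.109), 0.64 after level matching and 0.23 without wild-type arrays 2 and 3.

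Of the 12 genes listed as targets of heat shock factors (in the cytosol Hspa1a, Hspa1b, Hspa4l, Hspa8, Hsph1, Hsp90aa1, Hsp90ab1, Stip1, Dnaja1 and Dnajb1, and in mitochondria Hspd1 and Hspe1), 10 were measured. Their median difference was 0.35, 8 were positive and 0 were called. The median was 0.15 after level matching and 0.14 without wild-type arrays 2 and 3. At an unadjusted p under 0.05 by limma 5 of the 10 lay higher, beside 12.3% of all genes and 23.4% of genes of like level, and after level matching 2 did, beside 11.5% and 11.7%. The 5 were Stip1, Hsp90aa1, Hspa4l, Hsph1 and Hspa1a, while Hspa8, Dnaja1, Dnajb1, Hspd1 and Hspe1 had limma adjusted p-values from 0.247 to 0.943. Dnajb1 lay below the median level of all genes. Of the 4 genes with the long heat shock element, Hsph1 was among the 5, and Hspd1, Hspe1 and Dnajb6 were not.

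**Figure D3:**
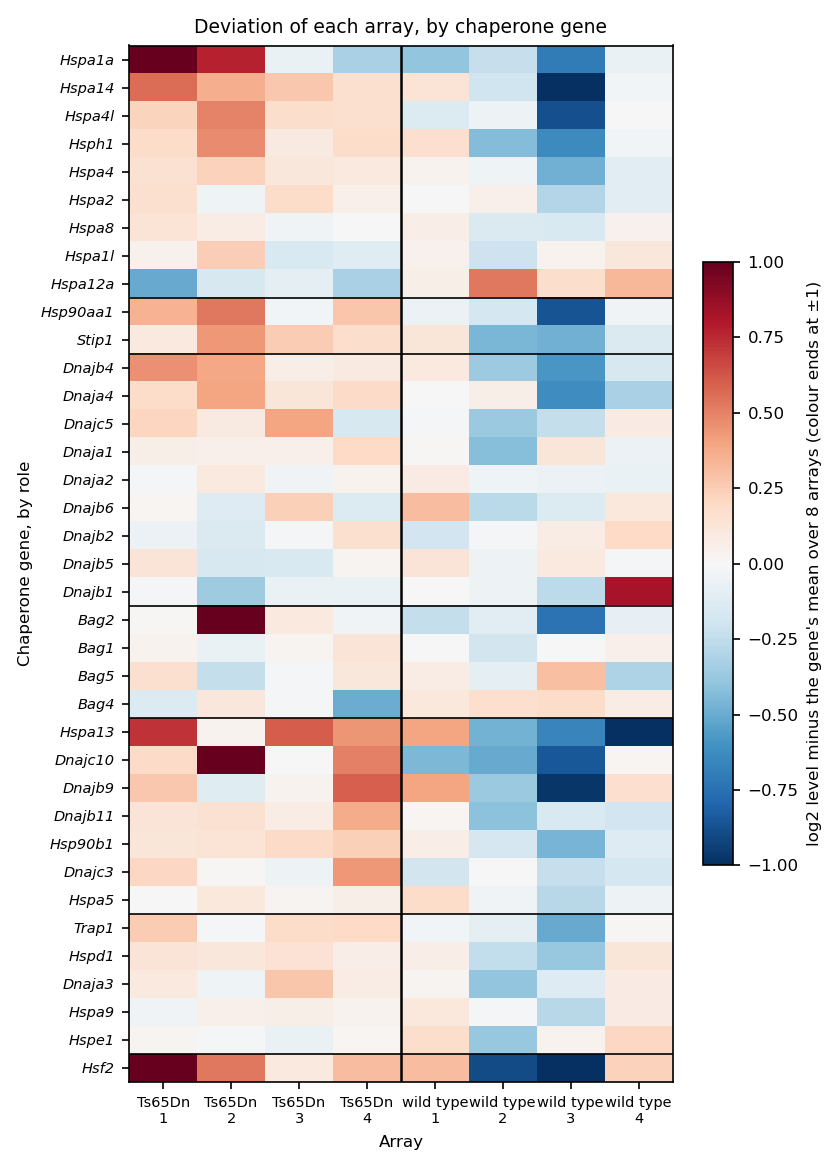
Deviation of each array from the gene's mean over 8 arrays, on the log2 scale, for the 37 chaperone genes by role (red higher, blue lower, colour ends at 1 and -1, black lines between roles). Wild-type array 3 is the lowest array for 21 genes and wild-type array 2 for 8, and Ts65Dn array 2 is the highest for 10.

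Across arrays the low values were gathered in wild-type arrays 2 and 3. Wild-type array 3 held the lowest value for 21 of the 37 chaperones and wild-type array 2 for 8, against 1 for wild-type array 1 and 3 for wild-type array 4. The median deviation of the chaperones from their own means was -0.28 in wild-type array 3, -0.17 in array 2, 0.06 in array 1 and -0.02 in array 4, and between 0.06 and 0.13 in the Ts65Dn arrays. After level matching it was -0.15 in wild-type array 3 and -0.07 in array 2, and between -0.03 and 0.04 in the other 6 arrays. These are the arrays with the narrowest spread over all probe sets. The part of that spread in the chaperone differences was not tested beyond other normalizations, level matching, array weights and leaving these arrays out. Without both of them the chaperone median was 0.12, beside -0.05 for all genes and 0.03 for genes of like level, and 2 lay higher and 2 lower at an unadjusted p under 0.05, with 0 called by limma. Among all genes 6.99% then lay higher and 9.82% lower, and among genes of like level 12.4% and 4.61%.

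Single arrays moved the counts as well. The 16 chaperones higher at an unadjusted p under 0.05 fell to 8 when Ts65Dn array 2 was left out, and to 9 when wild-type array 3 was. The shares of all genes were then 10.2% and 9.77%, and those of genes of like level 19.0% and 17.9%. The limma count of calls was 5 without wild-type array 1 (Hspa13, Stip1, Dnajb4 and Hsph1 higher and Hspa12a lower), 1 without wild-type array 4 (Dnajc10), and 0 without any other single array. Without wild-type array 1, 14.4% of all genes and 15.3% of genes of like level were called, and without wild-type array 4, 12.1% and 10.8%, so these counts of chaperones were not above the background.

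**Figure D4:**
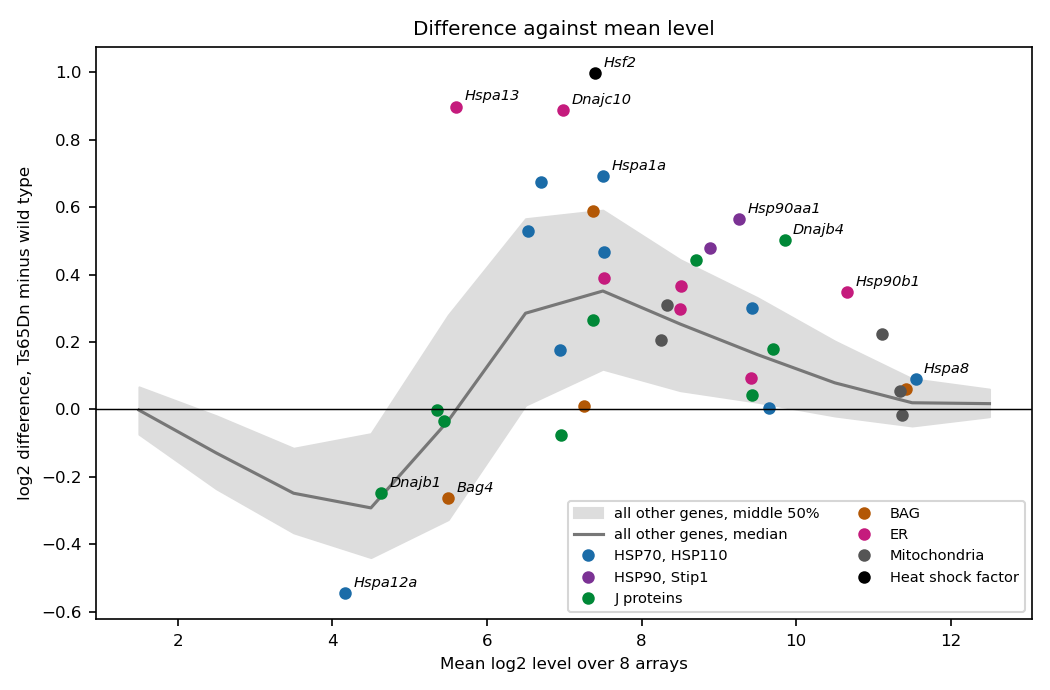
Log2 difference against mean log2 level over 8 arrays for the 37 chaperone genes (points, coloured by role), with the median and middle 50% of all other genes outside the trisomic segments in level bins of width 1 (grey line and band). The band runs from below 0 at levels of 3 to 5 to above 0 at 7 to 9, and set against the band of its own bin, 10 genes lie above, among them Hspa13, Hsf2, Dnajc10 and Hsp90b1, 4 below and 23 within.

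Other genes of the chaperone system were given by 5 lists with 107 genes, of which 106 were measured. By limma 3 were called higher and 1 lower, which is 2.83% and 0.943% beside 2.32% and 2.94% of all genes, and 3.55% and 1.14% of genes of like level. At an unadjusted p under 0.05, 27 lay higher (25.5%) and 7 lower (6.6%), and 74 differences were positive. These shares lie near those of genes of like level (23.4% and 8.68%), and among all genes they were 12.3% and 22.6%. After level matching 12 lay higher and 10 lower (11.3% and 9.43%, beside 11.5% and 9.42% of all genes).

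The 4 called genes were 3 J proteins and an ER protein. Dnajc1, a J protein of the ER membrane, was at 7.09, 6.87, 6.81 and 6.97 in Ts65Dn and at 6.39, 5.95, 5.99 and 6.06 in wild type. The groups did not overlap, and the rise was 0.84 (limma adjusted p = 0.0456). Sel1l, which anchors the ligase that removes misfolded ER proteins, was at 7.21, 7.16, 7.41 and 7.40 in Ts65Dn and at 6.84, 5.54, 6.01 and 6.62 in wild type, a rise of 1.04 (limma adjusted p = 0.0474) that was 0.65 after level matching and 0.56 without wild-type arrays 2 and 3.

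Dnajc28, a J protein of uncertain role and the only one of the 106 in a trisomic segment, was at 7.14, 7.25, 7.24 and 7.70 in Ts65Dn and at 6.71, 6.64, 6.50 and 6.98 in wild type. The rise was 0.63 (limma adjusted p = 0.0484), and 0.32 after level matching. Dnajc6 (auxilin), which uncoats clathrin vesicles mainly in nerve cells, was at 4.34, 4.08, 4.21 and 4.32 in Ts65Dn and at 4.54, 4.84, 5.13 and 4.76 in wild type, and fell by 0.58 (limma adjusted p = 0.0474). Its level-matched difference was -0.28. These 4 calls were lost (0 called) with level matching, with quantile normalization, with the replicate number as a block, and without wild-type arrays 2 and 3 together. They were also lost without wild-type array 2 or 3 or any single Ts65Dn array, while 11 of 106 were called without wild-type array 1 and 9 without wild-type array 4, where 14.4% and 12.1% of all genes were.

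Among other co-chaperones of HSP90 and HSP70, 17 of 21 differences were positive and 0 were called by limma. The positive share was 81.0%, beside 39.2% of all genes and 69.0% of genes of like level. At an unadjusted p under 0.05 by limma, 8 lay higher and 1 lower (38.1% and 4.76%). The shares of all genes were 12.3% and 22.6%, and those of genes of like level 23.4% and 8.68%. After level matching 2 lay higher and 1 lower (9.52% and 4.76%, beside 11.5% and 9.42% of all genes). Chordc1, an HSP90 partner that responds to heat shock, had a difference of 0.77, Ahsa2, a relative of the activator of HSP90, one of 0.57, Smyd1, a methyltransferase that assists myosin folding, one of 0.51, and Cdc37, which brings kinases to HSP90, one of 0.38. Their limma adjusted p-values ran from 0.0667 to 0.0734, and after level matching the differences were 0.39 for Chordc1, 0.35 for Ahsa2, 0.15 for Smyd1 and 0.16 for Cdc37. Of the other J proteins, 20 of 34 differences were positive, and 6 lay higher and 4 lower at an unadjusted p under 0.05 (17.6% and 11.8%). After level matching this turned to 3 higher and 7 lower (8.82% and 20.6%), with 17 of 34 positive. Dnajc14 had a difference of 0.44 (limma adjusted p = 0.0652), and 0.15 after level matching.

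In the ER folding and unfolded protein response list, 22 of 27 differences were positive (81.5%), and 1 was called higher by limma (3.7%). At an unadjusted p under 0.05, 8 lay higher (29.6%) and 0 lower. Of all genes 39.2% were positive, 2.32% were called higher, and 12.3% and 22.6% lay higher and lower at that p. For genes of like level these shares were 69.0%, 3.55%, 23.4% and 8.68%. The list's median was 0.25, with 0.26 after level matching (0.0012 for all genes) and 0.11 without wild-type arrays 2 and 3. After level matching 5 lay higher and 1 lower at an unadjusted p under 0.05 (18.5% and 3.7%, beside 11.5% and 9.42% of all genes). The 1 lower was Ddit3, with a difference of -0.27 in the deposited values. After level matching it was -0.55, with all 4 Ts65Dn arrays below. Sdf2l1 had a difference of -0.37, Hyou1 one of 0.02 and Xbp1 one of 0.08. Ppp1r15a, which ends the translation block of the stress response, had a difference of 0.63 without overlap, Pdia6, a disulfide isomerase, one of 0.66, and Ero1a, which reoxidises such enzymes, one of 0.46, with limma adjusted p-values from 0.0674 to 0.0753.

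Of 15 other genes of mitochondrial folding and import, 11 differences were positive, 3 lay higher and 0 lower at an unadjusted p under 0.05, and 0 were called by limma. The median was 0.12, and -0.11 after level matching. Afg3l2, a protease of the inner membrane, had a difference of 0.49, the import receptors Tomm20 and Tomm22 had 0.42 and 0.36, and the protease Htra2 had 0.35. Of 9 genes listed around heat shock factors, 4 differences were positive (44.4%) and 0 were called by limma. At an unadjusted p under 0.05, 2 lay higher and 2 lower (22.2% each), beside the same shares of all genes and of genes of like level. Ep300, an acetyltransferase that acts on Hsf1, had a difference of 1.14 (limma adjusted p = 0.0579), which was 0.50 without wild-type arrays 2 and 3, and Vcp, a segregase for ubiquitinated proteins, had 0.53. Hsf5 and Hsf2bp had -0.29 and -0.34.

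Some marker genes of other cell types also differed between the groups. By limma 2.32% of all genes were called higher and 2.94% lower, and 12.3% and 22.6% had an unadjusted p under 0.05. Of 6 endothelial markers 5 had positive differences and 2 were called higher by limma, Kdr (0.99) and Emcn (1.18), and their mean level per array was 5.89 to 6.18 in Ts65Dn and 5.11 to 5.61 in wild type. Of 8 macrophage markers 5 were positive and 3 negative, and 1 was called, Cd68 (2.39). The others ran from -0.09 (C1qa) to 0.42 (Lyz2). Mean levels, which include Cd68, were 5.02 to 5.54 against 4.65 to 4.92. Fibroblast markers had 3 of 6 positive and 1 called, Pdgfra (0.62), with mean levels of 6.59 to 6.74 against 6.38 to 6.55. After level matching 3 of 6 were positive, and 2 lay higher at an unadjusted p under 0.05 (33.3%). Kdr and Pdgfra were also called by limma in level-matched values, and Emcn and Cd68 were not. Adipocyte (2 of 6 positive), Schwann cell (1 of 4 measured), red blood cell (0 of 2 measured) and neutrophil markers (1 of 5) had 0 calls by limma, with 1, 1, 0 and 3 genes at an unadjusted p under 0.05. Mean levels per array were 5.58 to 6.18 against 5.94 to 6.46 for adipocyte markers, 5.33 to 5.59 against 5.43 to 5.64 for Schwann cell markers, 4.85 to 5.99 against 5.42 to 5.86 for red blood cell markers and 3.61 to 3.92 against 3.82 to 4.36 for neutrophil markers. The part of these cell types in the chaperone differences was not tested. In whole muscle more or fewer cells of a type cannot be told apart from more or less RNA per cell.

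Immediate early genes, which respond within minutes to handling and stress, had mostly negative differences. Of 10 measured, 8 had negative differences, as did 12113 of all 19938 genes. By limma 2 were called lower, Ier2 (-0.68) and Fosb (-0.50), beside 2.94% of all genes. Ier2 and Fosb had mean levels of 3.996 and 4.24. Other genes at levels of 3 to 4 and of 4 to 5 had median differences of -0.25 and -0.29. After level matching Ier2 was at -0.41 without overlap and Fosb at -0.20 with overlap, and neither was called. Of the 10, 1 was then positive, beside 50.2% of all genes. Atf3, a stress-induced transcription factor singled out after its values were seen, had the largest difference of the list at 1.38 (limma adjusted p = 0.151). It was at 9.70, 7.99, 6.05 and 6.78 in Ts65Dn and at 6.32, 6.57, 5.45 and 6.66 in wild type, with Ts65Dn arrays 1 and 2 the highest, as for Hspa1a. The mean level of the list was 5.51 to 6.10 in Ts65Dn and 5.68 to 6.18 in wild type. Skeletal muscle markers had 7 of 10 positive differences with 0 called by limma and 1 at an unadjusted p under 0.05, and mean levels of 11.63 to 11.75 against 11.55 to 11.70.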

How the data were processed

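Values were deposited as 1 table of log2 levels for 35556 probe sets on 8 arrays. The authors used Affymetrix Expression Console 1.1 and RMA, per the submitters' processing notes, and the log2 scale was read from their range. The genome build is not given in the sources used here. Of the probe sets 21789 carried 1 gene symbol, 1621 several and 12146 none, and 21698 of the symbols were brought up to date with RefSeq GRCm38.p6. Probe sets with several symbols were left out, 1 annotated to both Hspa1a and Hspa1b among them. Where a gene has near-identical copies, as the HSP70, HSP90 and chaperonin genes do, probes may not tell them apart.

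The test was limma's moderated linear model (version 3.58.1, R 4.3.3; lmFit, eBayes), two-sided and without covariates, with Benjamini-Hochberg adjustment over all 19938 genes at 0.05. The script was tested on simulated data. Python 3.11.15, pandas 2.3.3 and matplotlib 3.10.9 prepared tables and plots. Promoters were searched as letters in the RefSeq table. With 4 arrays in each group their number limits the precision, and p-values measure the spread between these mice.

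Values per array are given for the 12 chaperones with the smallest p, the first of each of 7 roles and a few fixed by name. They are also given for the called genes among the pathway lists, of which up to 4 genes per list are named by smallest p. Ddit3, Sdf2l1, Hyou1 and Xbp1 of the ER list were named besides, after their values were seen. The members, lists and alternatives were chosen with earlier results of these data known. Alternatives were other normalizations, level matching, leaving out genes under the median level, averaged probe sets, a replicate block, array weights, other estimation, adjustment over all probe sets, another threshold and leaving out arrays.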

Additional observations from a re-analysis of the deposited data

Results flagged for a closer look

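Within groups of 4 arrays, 6 single values stood far from the other 3 among the 74 groups checked, where chance gives about 1 in 20. In wild-type array 3, Hspa4l was at 5.64 against 6.39 to 6.53 in the other wild-type arrays, and Hsp90aa1 was at 8.39 against 9.09 to 9.23. In Ts65Dn array 2, Bag2 was at 8.47 against 7.34 to 7.47, and Dnajb1 was at 4.27 against 4.57 to 4.62. Dnaja1 was at 9.89 in Ts65Dn array 4 against 9.74 to 9.75, and Dnaja2 was at 9.50 in wild-type array 1 against 9.36 to 9.38.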

How the results depend on the processing

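Of 701 chaperone values recomputed under 20 alternatives, 636 kept their direction and side of the threshold, 58 changed direction and 7 passed only under the alternative, and 21 of the 37 genes kept their direction throughout. No chaperone was called (0) with any alternative except centring (1, Dnajc10), leaving out single arrays (0 to 5) and a threshold of 0.10 (10). At 0.10 the share of all genes was not counted, so the counts at that threshold have no background. The 4 called pathway genes were 0 with adjustment over all probe sets, level matching, quantile normalization or without wild-type arrays 2 and 3, 1 with array weights, cyclic loess or genes above the median level, 0 to 11 with single arrays left out, and 19 at 0.10. Chaperones higher at an unadjusted p under 0.05 (16) were 10 with array weights, 5 with cyclic loess, 6 with level matching or quantile normalization, 2 without wild-type arrays 2 and 3 and 8 to 15 without single arrays. Those lower (1) were 0 among genes above the median level, which leaves out Hspa12a and Dnajb1, 2 with quantile normalization or without wild-type arrays 2 and 3, and 1 to 2 without single arrays. Groups without overlap, higher (8), were 1 with cyclic loess or quantile normalization, 18 with centring, 2 with level matching and 9 to 14 without single arrays, where leaving an array out can only keep or raise the count. Those lower (1) were 0 with cyclic loess, quantile normalization or genes above the median level, 4 without wild-type arrays 2 and 3 and 1 to 2 without single arrays. The chaperone median was 0.47 with centring and 0.0495 with level matching. Except where given above, shares of all genes were not counted under the alternatives. The counts without such a share are not read as a result about chaperones.

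Differences changed direction as follows, and the cause was not tested. With array weights Hspa1l was -0.024 and Hspa9 -0.0068. With cyclic loess Hspa1l was -0.13, Hspa2 -0.013, Dnaja2 -0.097, Dnajb1 0.0069, Dnajb2 0.053, Dnajb6 0.11, Bag1 -0.016, Bag5 -0.19, Hspa5 -0.046 and Hspa9 -0.026. With centring Dnajb2 was 0.17, Dnajb5 0.13, Dnajb6 0.20 and Hspe1 0.19. With level matching Hspa1l was -0.16, Hspa2 -0.15, Dnaja2 -0.11, Dnajb1 0.0080, Dnajb2 0.048, Dnajb6 0.028, Dnajc5 -0.079, Bag5 -0.29, Hspa5 -0.055 and Dnaja3 -0.016. With quantile normalization Hspa1l was -0.11, Hspa2 -0.096, Dnaja2 -0.095, Dnajb6 0.063, Dnajc5 -0.018, Bag5 -0.27, Hspa5 -0.050, Hspe1 0.0014 and Dnaja3 -0.019. Without wild-type arrays 2 and 3 Hspa1l was -0.075, Hspa8 -0.012, Bag1 -0.0004, Hspa5 -0.017, Dnajb9 -0.088 and Hspa9 -0.066. Without single arrays Hspa1l ran from -0.075 to 0.058, Bag5 from -0.089 to 0.11, Dnajb2 from -0.10 to 0.028, Dnajb6 from -0.093 to 0.10, Hspe1 from -0.15 to 0.051 and Hspa9 from -0.030 to 0.098.

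With the replicate number as a block, 0 chaperones and 0 pathway genes were called, and 14 chaperones lay higher at an unadjusted p under 0.05. The labels do not say that the numbers pair mice. Deviations of same-numbered arrays correlated by 0.0299, 0.0117, 0.0913 and 0.0701, and 2 of the 4 numbers matched best with their own.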
